A study of Mus musculus with 2931 samples.

Results

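The glycolysis genes described here are 10 genes for steps from glucose uptake to lactate: Slc2a1, Hk2, Pfkl, Pfkfb3, Aldoa, Tpi1, Pgk1, Eno1, Pkm and Ldha. They were chosen by symbol, and all 10 were found among the 18072 gene symbols of a read count table of endothelial cells (EC, the inner lining of vessels), sequenced singly from distal mouse lung. The table holds 2931 cells of 10 mouse names. The groups, each with 1 female and 1 male mouse name, were E18.5 (embryonic day) and P1, P7 and P21 (days after birth), all in normal air, and a further P7 group under hyperoxia, in which mice breathe air with raised oxygen. The oxygen level, the strain and the genotype are not given in the sources used here, and no transgene or deletion is named for any group. Every group value rests on n = 2 mouse names, and whether a name stands for a single animal or for pooled animals is also not given.

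Glycolysis splits glucose into pyruvate in the cytosol and yields ATP without oxygen. Glucose enters through transporters such as the one encoded by Slc2a1, hexokinase (Hk2) traps it by phosphorylation, and phosphofructokinase (Pfkl is its liver-type subunit) commits it to breakdown. Pfkfb3 makes fructose 2,6-bisphosphate, which activates phosphofructokinase. Aldolase (Aldoa), triosephosphate isomerase (Tpi1), phosphoglycerate kinase (Pgk1), enolase (Eno1) and pyruvate kinase (Pkm) carry the sugar on to pyruvate, and lactate dehydrogenase (Ldha) turns pyruvate into lactate. Endothelial cells are known for a high rate of glycolysis, and PFKFB3 is known for its role in sprouting vessels. Many genes of the pathway are textbook targets of hypoxia-inducible factors, which bind the core motif ACGTG or GCGTG. Birth moves the lung from low fetal oxygen to air.

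Most members hold this core near a RefSeq start and had a lower mean level after birth, as described below. A link between core and level was not tested. Promoters of 3 of these members are shown as examples. Each is the 250 bases before a RefSeq start on the plus strand of GRCm38.p6, 5′ to 3′, and capitals mark ACGTG or GCGTG on either strand (CACGT and CACGC are the reverse complements). The first lies at chr7:46845554-46845803, the second at chrX:106186850-106187099 and the third at chr4:150236947-150237196.
Ldha: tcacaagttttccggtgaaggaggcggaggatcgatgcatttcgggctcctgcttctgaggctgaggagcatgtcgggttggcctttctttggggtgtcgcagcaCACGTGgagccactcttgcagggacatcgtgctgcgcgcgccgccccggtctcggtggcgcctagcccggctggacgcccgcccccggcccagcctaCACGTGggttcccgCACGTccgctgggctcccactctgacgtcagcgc
Pgk1: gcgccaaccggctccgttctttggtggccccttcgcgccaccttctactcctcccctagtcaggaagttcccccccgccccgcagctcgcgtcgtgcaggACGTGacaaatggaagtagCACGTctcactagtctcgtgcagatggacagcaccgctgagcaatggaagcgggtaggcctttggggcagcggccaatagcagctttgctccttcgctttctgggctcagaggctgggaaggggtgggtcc
Eno1: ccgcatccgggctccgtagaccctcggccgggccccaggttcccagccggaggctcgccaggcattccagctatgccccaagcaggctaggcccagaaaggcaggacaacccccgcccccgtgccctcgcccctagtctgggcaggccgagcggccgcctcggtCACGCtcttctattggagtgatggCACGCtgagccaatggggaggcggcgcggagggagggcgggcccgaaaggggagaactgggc
In the Ldha stretch the core occurs 5 times, where each of the 2 copies of the palindrome CACGTG counts as 2 overlapping matches, one per strand. The Pgk1 and Eno1 stretches hold 2 each, with no overlap. RefSeq windows from 250 bases before to 50 after a start were matched by symbol for all 10 members and gave 17 windows, of which 14 held the core. Of all 32851 windows 43.8% held it, and 61.0% did among the 16387 windows whose GC content was at least that of the most GC-poor member window (52.7%). That limit is also the median of all windows, while member windows reached 69.7%, so GC content was matched only loosely. Some windows of Aldoa and of Eno1 overlap and share the same matches. Tpi1 was the member with no core in its window. A match is a run of letters, and no binding was measured.

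Reads were counted without unique molecular identifiers, and a cell had 42095 to 2967985 reads with a median of 621406. For every comparison the reads of a subtype label were summed per mouse where at least 8 cells were present (48 sums), and levels are given as CPM, the counts per 1000000 reads of the sum. Summed endothelial markers (Pecam1, Cdh5, Kdr, Tek and Cldn5) lay between 2745 and 12204 CPM in the groups. Summed markers of white blood cells were at most 51.9 CPM in any sum. Red cell markers (the globins and Alas2) reached 379 CPM in Car4+ capillaries of the male hyperoxia mouse and 346 CPM in proliferative EC of the male E18.5 mouse, and were at most 39.6 CPM in the other sums. No 2 cells had identical counts. Some sequencing runs hold a single mouse, and the male P7 mouse had the fewest reads (56564316, against up to 331392982 in the female P7 mouse). In such sums fewer expressing cells and less RNA per cell cannot be told apart.

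Per kilobase of exon, the most abundant members over the 48 sums were Ldha and Aldoa, with median levels of 169 and 153 CPM per kb. Ldha was above Aldoa in 25 of the 48 sums, so these neighbours did not differ in a steady order. Pkm (50.2) and Tpi1 (44.98 CPM per kb) followed, and Pkm was above Tpi1 in 33 sums. Eno1 had a median of 16.6, Pgk1 9.40, Pfkl 6.40 and Slc2a1 3.37 CPM per kb. The scarcest members were Pfkfb3, with a median of 0.633, and Hk2, with 0.0255 CPM per kb. Of the CPM summed over all 10 genes, Aldoa, Ldha and Pkm together held a median of 79.1% (69.8% to 93.9%), while Slc2a1, Hk2 and Pfkfb3 held 1.40%. In each of the 48 sums 7 members had reads, the others being these 3 scarce genes.

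The levels of some members carry uncertainty from near-identical genes, since the way reads were shared between copies is not given in the sources used here. Eno1 (chr4:150236721-150248879, plus strand, GENCODE M21 on GRCm38) matches Eno1b at 99.5% identity over 1736 bases. Eno1b held 21.5% of the reads of both symbols. This share and those below were taken over 54 sums of at least 8 cells, in which cells of the Early Car4- label are counted again. Pgk1 (chrX:106187100-106203699, plus strand) matches Pgk1-rs7, which held 9.04% of the reads of both, and Tpi1 (chr6:124810586-124814296, minus strand) matches Tpi-rs11, which held 1.84%. Ldha (chr7:46841475-46855627, plus strand) and Pkm (chr9:59656368-59679375, plus strand) match pseudogenes that have no row in the table, so their levels may also be affected. Eno1 and Pgk1 match such pseudogenes too, among them Gm4735 for Eno1 (99.6% identity over 1302 bases) and Gm5537 for Pgk1 (100% over 1252 bases). Reads lost to these could not be added back. All 10 are protein-coding genes, and values are for reads over their exons.

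From E18.5 to P1 the glycolysis genes of noncycling capillary cells had lower mean levels almost as a whole. Nonproliferative embryonic EC of E18.5 were compared with Car4- capillaries of P1 (the Early and Late Car4- labels together), so the step joins a change of age with a change of subtype label. The 10 genes summed to 2686 and 4135 CPM in the E18.5 mice and to 1239 and 1299 CPM at P1. Without overlap between the mice, 9 members were lower at P1, where 18.6% of all 14967 genes tested were. The median log2 change of the members was -1.28, against 0.02 over all genes tested. No member passed the edgeR test adjusted over all genes, which called 0.494% of genes, and 6 members had an unadjusted p under 0.05 in the lower direction, as had 3.88% of all genes. DESeq2, run as an alternative, called 2 members and 3.82% of all genes, and limma called 0 members and 57 genes. The 5 cycling markers were also higher before birth in these noncycling cells, at 252 and 298 CPM in the E18.5 mice against 32.0 and 48.9 CPM at P1, and their part in the result was not tested.

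Eno1, which makes phosphoenolpyruvate, and Pkm, which turns it into pyruvate, had the smallest p-values of the members in this step. Eno1 had 210 and 371 CPM in the female and male E18.5 mice and 98.4 and 74.9 CPM at P1. The groups do not overlap, and the male mouse was the higher at E18.5 and the lower at P1. The log2 change of Eno1 was -1.68 (SE 0.39, edgeR adjusted p = 0.103). Pkm had 616 and 597 CPM at E18.5, then 252 and 129 CPM at P1, again with no overlap (log2 change -1.63, SE 0.39, edgeR adjusted p = 0.110). DESeq2 gave adjusted p-values of 0.00258 for Eno1 and 0.00283 for Pkm, and over the other 18 alternatives these ranged from 0.0555 to 0.530 for Eno1 and from 0.0609 to 0.494 for Pkm. With the reads of Eno1b added, the change of Eno1 was -1.63 (edgeR adjusted p = 0.115).

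Aldoa and Ldha, the most abundant members, were lower as well. Aldoa had 791 and 1290 CPM at E18.5 and 295 and 468 CPM at P1 (log2 change -1.33, SE 0.42, edgeR adjusted p = 0.339). Ldha had 744 and 1352 CPM at E18.5 and 446 and 405 CPM at P1 (log2 change -1.23, SE 0.40, edgeR adjusted p = 0.349). In both genes the lowest E18.5 mouse was the female one, and it stayed above both P1 mice. Tpi1 had 173 and 354 CPM before and 112 and 117 CPM after (log2 change -1.12, SE 0.42, edgeR adjusted p = 0.420). Pgk1 had 34.2 and 25.8 CPM before and 20.8 and 10.7 CPM after, the smallest of these shifts (log2 change -0.88, SE 0.64, edgeR adjusted p = 0.728).

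Among the genes of uptake and of the first steps, Slc2a1, Hk2 and Pfkfb3 were the scarce members. Slc2a1 had 23.9 and 43.5 CPM at E18.5 and 13.7 and 4.51 CPM at P1 (log2 change -1.88, SE 0.86, edgeR adjusted p = 0.517). Its reads came from few cells: 32 of 134 and 38 of 168 cells had any at E18.5, and 18 of 181 and 6 of 122 at P1. At E18.5, 50% of its reads lay in 3 and 6 cells. Pfkl had 76.2 and 98.1 CPM and then 54.6 and 29.0 CPM (log2 change -1.02, SE 0.50, edgeR adjusted p = 0.553). Hk2 had 13.1 and 2.90 CPM at E18.5 and 0.62 and 0.19 CPM at P1, with 1657 and 70 reads in all (log2 change -4.27, SE 2.16, edgeR adjusted p = 0.561). Pfkfb3 was the exception, with 3.41 and 0.91 CPM before and 5.42 and 0.19 CPM after, so that its groups overlap (log2 change 0.34, SE 1.22).

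**Figure D1:**
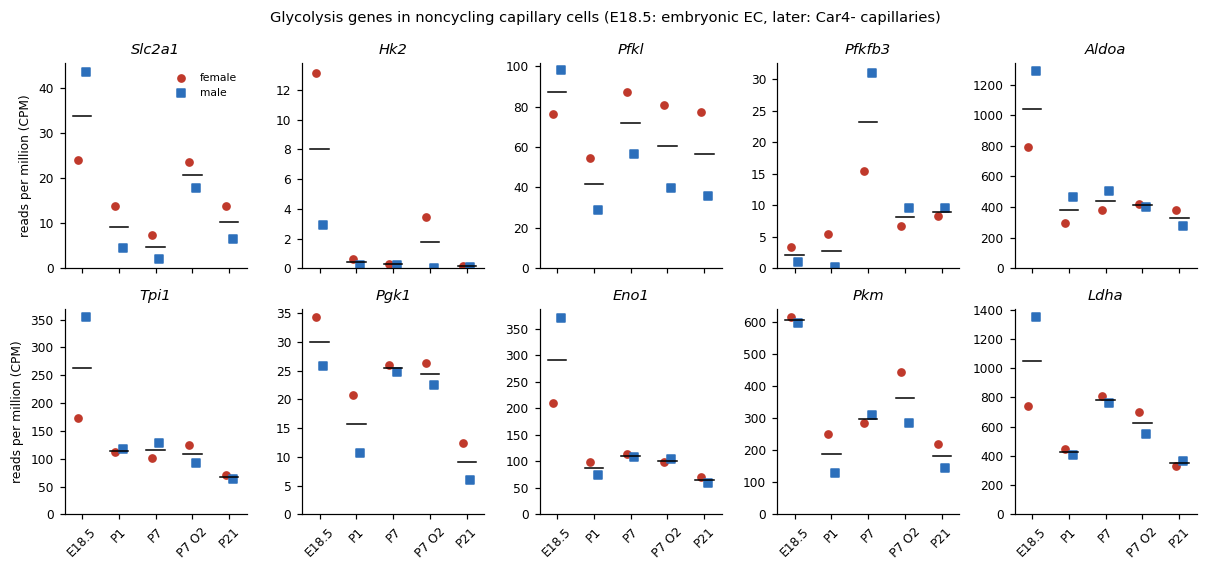
Level of each member (CPM, 1 panel per gene) by age in noncycling capillary cells, with a point per mouse (female and male) and embryonic EC at E18.5 beside Car4- capillaries at later ages. In 9 members both P1 mice lie below the E18.5 mice, and Pfkfb3 is the exception.

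The same step could be viewed within a single sequencing run for the female mice, whose E18.5 and P1 cells of the CD31 gate shared a run. There 9 of 10 members were lower at P1, with a median log2 ratio of -0.72, and these are ratios of 1 mouse to another with no test. They were taken for the members alone, so how all genes moved within this run is not known. The summed level of 8 genes of handling stress (among them Fos, Jun and Egr1) was also higher at E18.5, at 5172 to 5651 CPM against 2567 to 3690 CPM at P1, and its part in the result was not tested. In Car4- capillaries of P21 the stress sum was 5508 to 5603 CPM. The members summed to 969 to 1185 CPM there, the lowest of the ages from P1 on. These P21 cells also differ from the E18.5 cells in age and subtype label, and the part of stress was not tested.

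**Figure D2:**
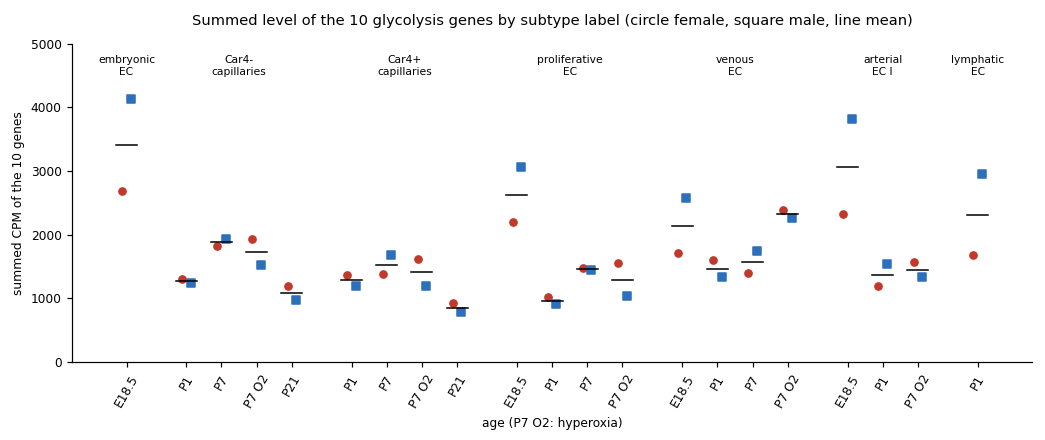
Summed CPM of the 10 members by subtype label and group, with a point per mouse (circle female, square male) and a line at the mean. The E18.5 sums of noncycling embryonic EC (2686 and 4135 CPM) lie above the P1 sums of Car4- capillaries (1239 and 1299 CPM), and P21 sums are the lowest of Car4- capillaries from P1 on.

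Cycling cells showed the same direction at birth. Proliferative EC, marked by genes such as Mki67 and Top2a, summed to 2195 and 3063 CPM of the members at E18.5 and to 904 and 1024 CPM at P1. All 10 members had a lower fitted level at P1, 9 of them without overlap, as had 27% of all 13102 genes. The median change was -1.80, against -0.16 over all genes. By edgeR 0 genes (0%) were called, and 972 had an unadjusted p under 0.05. Among those were 3 members, all lower, where 4.95% of all genes were. DESeq2 called 1 member and 3.89% of all genes, and limma called 0 of either. Only 13 and 9 cells were present at P1. Red cell markers summed to 22.8 and 346 CPM in the E18.5 mice and 0 CPM at P1, and their part was not tested.

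Eno1 had 214 and 305 CPM at E18.5 and 62.2 and 55.4 CPM at P1 in cycling cells (log2 change -2.07, SE 0.51, edgeR adjusted p = 0.375), and it was the member that DESeq2 called (adjusted p = 0.00852). Pfkl had 122 and 70.7 CPM at E18.5 and 25.8 and 3.18 CPM at P1 (log2 change -2.75, edgeR adjusted p = 0.593). Pkm had 593 and 532 CPM and then 284 and 108 CPM (log2 change -1.50, edgeR adjusted p = 0.561). All 3 genes are lower in each P1 mouse, and the male P1 mouse is the lowest. Without the female P1 mouse, Pfkl (adjusted p = 0.0117) and Pkm (0.0350) passed the edgeR test, and without the male P1 mouse Aldoa did (0.0283). The edgeR test then called 6.41% and 0.694% of all genes. In those fits the lone P1 mouse is assumed to vary like the other groups. Hk2 had 253 reads at E18.5 and 0 at P1, which with a floor of 3 reads over the group is at least 9.24-fold lower. Pfkfb3 had 349 reads at E18.5 and 2 at P1, a ratio of 19.1 with a 95% counting interval of 5.25 to 158. Both P1 sums are small, so these limits cover counting error of reads only. A single cell held 226 of the 285 Pfkfb3 reads of the female E18.5 mouse, and another 56 of the 64 of the male one. Hk2 was also uneven at E18.5, at 2.42 CPM in CD31-gate cycling cells of the female and 0.26 CPM in those of the male mouse. The handling stress sum was 3013 to 3367 CPM at E18.5 and 1265 to 1606 CPM at P1.

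Venous EC, with 11 cells in each E18.5 mouse, showed a less uniform pattern. A lower fitted level at P1 was found for 8 members, and 2 were lower and 1 higher without overlap, where 9.83% and 27.4% of all 12326 genes were. The edgeR test called 0.0162% of genes and no member. Pfkl had 221 and 107 CPM at E18.5 and 32.5 and 36.9 CPM at P1 (log2 change -2.40, SE 0.72, edgeR adjusted p = 0.439). A single cell held at least 50% of the Pfkl reads in each E18.5 mouse. DESeq2 called Pfkl (adjusted p = 0.0186) and 4.37% of all genes, and edgeR without the male E18.5 mouse called Pfkl (0.0399) and 1.71%. Eno1 had 141 and 244 CPM before and 63.5 and 62.6 CPM after (log2 change -1.72, edgeR adjusted p = 0.542). Pfkfb3 went the other way, with 1 read at E18.5 and 260 at P1 (ratio 71.6, 95% counting interval 12.7 to 2840), of which 3 cells of the male P1 mouse held 98.0% of that mouse's reads. Within the female run 6 members were higher and 4 lower, and all genes were not compared there.

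**Figure D3:**
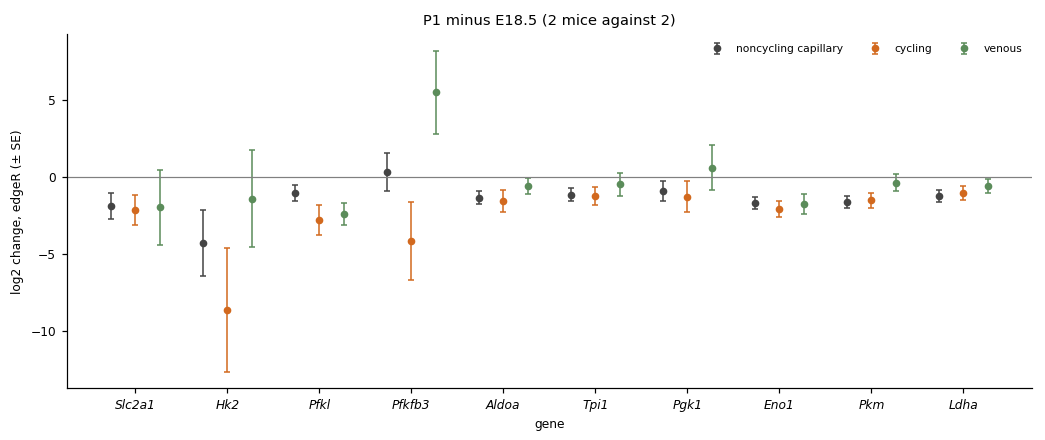
Log2 change from E18.5 to P1 with its SE (edgeR) for each member, in noncycling capillary, cycling and venous cells. All 10 cycling values and 9 noncycling values lie below 0, and Pfkfb3 in venous cells (5.54) lies above it. None passed the adjusted test.

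Most genes on related pathway lists also had lower mean levels after birth, though the median shift of the pentose phosphate list was small. The median over all genes tested in this step is given above, and edgeR called 0.494% of them. Of 19 other glycolysis genes tested in noncycling cells 13 were lower and 6 higher (median -0.74), and none was called. Ldhb, the other lactate dehydrogenase subunit, had 32.2 ± 2.18 CPM (SD) at E18.5 and 5.39 ± 3.16 CPM at P1 (log2 change -2.55, edgeR adjusted p = 0.417). Of 12 genes for the entry of pyruvate into mitochondria 8 were lower (median -0.51) with none called, and of 7 genes of the pentose phosphate branch 5 were lower (median -0.11) with none called. Of 16 other hypoxia-inducible genes 13 were lower (median -0.52), and 1 fell past the test, Ankrd37 (log2 change -3.40, edgeR adjusted p = 0.0431).

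Among 13 regulators of the pathway, 1 rose and 1 fell past the edgeR test, which called 0.494% of all genes. Epas1, which encodes the hypoxia-inducible factor subunit HIF-2α, rose from 212 ± 61.5 CPM at E18.5 to 1544 ± 384 CPM at P1 (log2 change 2.94, SE 0.41, edgeR adjusted p = 0.00347). Egln3, an oxygen-dependent prolyl hydroxylase that marks these factors for decay, fell from 132 and 72.5 CPM in the E18.5 mice to 0.05 and 0 CPM at P1 (edgeR adjusted p = 0.00111). It had 22531 reads at E18.5 and 4 at P1, a ratio of 4391 with a 95% counting interval of 1715 to 16117. At E18.5 it was read in 67 of 134 and 36 of 168 cells. Hif1a, the gene of the other main factor, had 46.2 ± 26.6 and 33.8 ± 24.7 CPM and did not pass the test (adjusted p = 0.899).

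After P1 no member passed the adjusted test between ages. In Car4- capillaries they summed to 1824 and 1927 CPM at P7 and to 969 and 1185 CPM at P21. From P1 to P7, 7 members were higher and 6 of them did not overlap, where 21.1% of all genes were. Of 14660 genes edgeR called 0%, with 1663 at an unadjusted p under 0.05, and DESeq2 and limma called no member. Ldha had 446 and 405 CPM at P1 and 808 and 763 CPM at P7 (log2 change 0.78, SE 0.34, edgeR adjusted p = 0.428). Among cells of the CD31 gate no sequencing run holds both ages in a mouse pair here, so run and age cannot be told apart.

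From P7 to P21 the mean level of 9 members was lower in Car4- capillaries, 7 of them without overlap, where 21.5% of all genes were, and 0.266% were called. Ldha had 333 and 369 CPM at P21 (log2 change -1.04, SE 0.35, edgeR adjusted p = 0.322), below both P7 mice, and DESeq2 called it (adjusted p = 0.0470) with 4.76% of all genes. Pgk1 had 26.0 and 24.8 CPM at P7 and 12.4 and 5.93 CPM at P21 (log2 change -1.38, edgeR adjusted p = 0.499). Within the run shared by the male mice 9 of 10 members were lower, with a median log2 ratio of -1.07. These ratios too were taken for the members alone, with no share over all genes to set beside them. The share of cells with no read of any member, after thinning to 50000 reads, was 13.97% and 29.1% in the P21 mice and 6.31% and 0% at P7. Thinned cells also differed in the number of genes of any kind. Over all cells of a mouse its median was 2141.5 and 1299 at P21 and 2299 and 3297 at P7 (female, then male). The part of this in the share was not tested.

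In Car4+ capillaries, the second capillary type of the lung, Ldha had 569 and 1120 CPM at P7 and 225 and 248 CPM at P21 (log2 change -1.97, SE 0.52, edgeR adjusted p = 0.858). This is the same direction as in Car4- cells, and DESeq2 called it (adjusted p = 0.0264) with 2.1% of all genes. In this step 0.00814% of 12284 genes were called. Without overlap 2 members were lower and 2 higher, where 12.8% and 20.9% of all genes were. Hk2 had 0 reads at P7 and 116 at P21 in Car4+ cells, at least 18.46-fold higher if 3 reads are taken as the floor of the P7 group. Slc2a1 had 375 reads at P1 and 2 at P7 (ratio 191, 95% counting interval 52.5 to 1583), and a single cell held at least 50% of the reads in each P1 mouse. Between P1 and P7 in Car4+ cells 0% of genes were called by edgeR, 772 had an unadjusted p under 0.05, and no tool called a member. In that step 2 members were higher and 2 lower without overlap, where 12.9% and 18.6% of all genes were. In venous EC Pfkl had 32.5 and 36.9 CPM at P1 and 140 and 121 CPM at P7 (log2 change 1.84, SE 0.71, edgeR adjusted p = 1.0). Of all genes 0% were called by edgeR in that step, while 396 had an unadjusted p under 0.05, and DESeq2 and limma called no member. Pfkl and Eno1 were the 2 members higher without overlap, where 17.3% of all genes were.

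Pfkfb3 (chr2:11471433-11554077, minus strand) stood apart in the male P7 mouse. In each cell type it was found in most cells of that mouse: after thinning, in 73.5% of Car4-, 66.7% of Car4+, 61.8% of cycling and 73.9% of venous cells. In the female P7 mouse the shares were 6.31%, 9.52%, 3.64% and 4.76%. The level in the male P7 mouse was also alike in these types, at 31.0, 29.5, 25.3 and 28.7 CPM. Unthinned, 106 of its 116 Car4- cells had a read of Pfkfb3, with a median of 6 reads in such cells and 14.02% of all its reads in the top 3 cells. In the female P7 mouse 42 of 206 cells had a read, and the top 3 held 69.0%.

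Few cells with many reads was the usual form for Pfkfb3, and the male P7 mouse was the exception to it. Among the 8 mice with at least 100 Car4- cells, the share of cells with a read was 50 percentage points above every other mouse for 1 of 18072 genes in 1 mouse, and that was Pfkfb3 in the male P7 mouse. This rule was set after the values had been seen. The male mice of E18.5, P21 and hyperoxia shared its sequencing run, and their unthinned shares of embryonic EC or Car4- cells with a read were 5.36% at E18.5, 26.1% at P21 and 9.85% under hyperoxia. The cause was not tested.

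**Figure D4:**
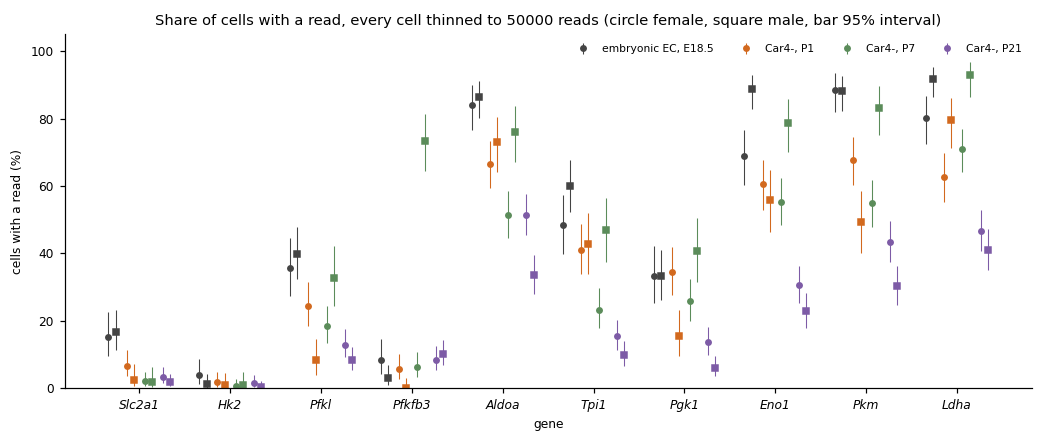
Share of cells with a read of each member after thinning to 50000 reads, by mouse, with 95% Clopper-Pearson bars that cover counting error only. Shown are embryonic EC at E18.5 and Car4- capillaries at P1, P7 and P21, all in normal air. Pfkfb3 in the male P7 mouse (73.5% of Car4- cells) stands apart from the female P7 mouse (6.31%).

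The changes of Pfkfb3 between P7 and other groups depended in part on this mouse, and none passed the edgeR test with it or without it. In Car4- capillaries Pfkfb3 had 5.42 and 0.19 CPM at P1 and 15.4 and 31.0 CPM at P7 (log2 change 3.08, SE 1.24, edgeR adjusted p = 0.407), and without the male P7 mouse the change was 2.57 (adjusted p = 0.610). In cycling cells the change from P1 to P7 was 6.83 (edgeR adjusted p = 0.499), on 2 and 279 reads, and 3.02 (adjusted p = 0.874) without that mouse. DESeq2 called the cycling change with all mice (adjusted p = 0.0428) as its 1 member there, among 4.68% of all genes. By edgeR 0% of genes were called there, 1287 had an unadjusted p under 0.05, and 6 members were higher without overlap, where 25.8% of all genes were. Without the female P1 mouse edgeR called Pfkl in that step (log2 change 3.96, adjusted p = 0.0199) and 8.38% of all genes. From E18.5 to P7 in cycling cells the Pfkfb3 change was 2.71 with the male P7 mouse and -1.12 without it. From P1 to P7 it was 2.24 and -0.76 in venous cells, and 2.12 and 1.46 in Car4+ cells. From P7 to P21 it was -1.26 and -0.74 in Car4- and -1.52 and -0.86 in Car4+ cells. Under hyperoxia the Pfkfb3 change in cycling cells was -1.10 with the mouse and 2.73 without it, in venous cells -0.16 and 2.90, in Car4- cells -1.53 and -0.99, and in Car4+ cells 0.24 and 0.90, all at an edgeR adjusted p of 1.0. The difference between cycling and Car4- cells at P7 was -2.21 with the mouse and -4.14 without it, and its departure from that of E18.5 was -2.15 and -4.09.

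Between cycling and noncycling cells of the same mice no member passed the adjusted test. At E18.5 proliferative EC were set against nonproliferative embryonic EC, with the mouse as a term, and 0.521% of 15157 genes and no member were called. Aldoa had 432 and 695 CPM in cycling and 791 and 1290 CPM in noncycling cells (log2 difference -0.84, SE 0.34, edgeR adjusted p = 0.928). The other members had unadjusted p-values of 0.0813 or more. In both mice 4 members were lower and 1 higher in cycling cells, where 30.4% and 24.8% of all genes were. The median member difference was -0.06, against -0.04 over all genes.

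At P7 Aldoa had the smallest p of the members. It had 133 and 135 CPM in cycling EC and 379 and 503 CPM in Car4- capillaries (log2 difference -1.70, SE 0.35, edgeR adjusted p = 0.104), lower in both mice. DESeq2 called it (adjusted p = 0.00145), as did edgeR on thinned cells (0.00359), with no filter on low counts (0.0389) and with the female or the male P1 mouse left out (0.0162 and 0.0168). Of all genes, these alternatives called 3.98%, 2.31%, 0.729%, 1.08% and 1.12% in the same order. Slc2a1 had 23.9 and 17.5 CPM in cycling and 7.47 and 2.15 CPM in Car4- cells (log2 difference 2.35, SE 0.82, edgeR adjusted p = 0.594), and DESeq2 called it as well (adjusted p = 0.00590). Slc2a1 was read in 7 of 55 and 6 of 34 cycling cells and in 6 of 206 and 4 of 116 Car4- cells. Of all genes 0.647% were called in this P7 pair. In both mice 4 members were higher and 4 lower in cycling cells, where 22.9% and 31.9% of all genes were. Whether the P7 difference departs from that of E18.5 was tested too, and 0% of genes were called by edgeR. An unadjusted p under 0.05 was found for 269 genes, with no member among them. DESeq2 and limma called no member in that test. The difference was -0.85 (SE 0.48) for Aldoa and 1.96 (SE 1.11) for Slc2a1, both at an edgeR adjusted p of 1.0.

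Over age within cycling cells, Aldoa (432 and 695 CPM at E18.5, 133 and 135 CPM at P7) and Eno1 (214 and 305, then 86.7 and 56.5 CPM) were lower in both P7 mice than in both E18.5 ones. Their log2 changes were -2.14 (edgeR adjusted p = 0.850) and -1.92 (adjusted p = 0.504). In all 6 members were lower without overlap, where 21.2% of all genes were, and 0.0458% of genes were called. DESeq2 called Eno1 (adjusted p = 0.0302), and edgeR called Aldoa with the female or the male P1 mouse left out (0.0446 and 0.0436) and with no filter on low counts (0.0267). Of all genes, DESeq2 called 1.51%, and these 3 edgeR fits 0.604%, 0.639% and 0.568%.

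Hyperoxia at P7 changed no member past the adjusted test in any of 4 cell types. All of these comparisons and those of P21 against P7 share the P7 mice in normal air. In Car4- capillaries, where 0.0136% of genes were called, the members summed to 1824 and 1927 CPM in normal air and 1521 and 1934 CPM in hyperoxia. Slc2a1, the glucose transporter, had 7.47 and 2.15 CPM in normal air and 23.5 and 17.8 CPM in hyperoxia (log2 change 2.06, SE 0.97, edgeR adjusted p = 0.887). It was the member higher without overlap in these cells, where 18.1% of all genes were, and 3 were lower, where 15.6% were. The reads of Slc2a1 came from 6 of 206 and 4 of 116 cells in normal air and from 17 of 153 and 8 of 132 cells in hyperoxia.

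Slc2a1 in Car4+ capillaries had 2 reads in normal air and 589 in hyperoxia (0.05 and 0 against 5.77 and 17.5 CPM). The ratio was 348, with a 95% counting interval of 96.0 to 2882, and the edgeR adjusted p was 0.731. All 69 reads of the female hyperoxia mouse came from 1 of 19 cells, and the 520 of the male mouse from 3 of 37 cells. Ldha had 569 and 1120 CPM in normal air and 465 and 421 CPM in hyperoxia (log2 change -1.26, SE 0.51, edgeR adjusted p = 0.731). In these cells 0% of genes were called by edgeR, and 757 had an unadjusted p under 0.05. Here 2 members were higher and 1 lower without overlap, where 19.8% and 12.4% of all genes were. Beside this, the 5 epithelial markers summed to 18.2 and 37.5 CPM in normal air and to 170 and 240 CPM in hyperoxia. Ager had 7.26 and 11.1 CPM and then 151.7 and 158.8 CPM, while Epcam and Nkx2-1 were at most 0.25 CPM in these 4 mice. Red cell markers summed to 0.42 and 379 CPM in the female and male hyperoxia mice and to 8.84 and 0.26 CPM in normal air. The part of these cells in the result was not tested.

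In venous EC the 2 members with an unadjusted p under 0.05 lay on opposite sides. Pfkl had 140 and 121 CPM in normal air and 36.1 and 31.8 CPM in hyperoxia (log2 change -1.94, SE 0.71, edgeR adjusted p = 1.0). Aldoa had 259 and 407 CPM in normal air and 684 and 758 CPM in hyperoxia (log2 change 1.14, SE 0.52, edgeR adjusted p = 1.0). Neither group pair overlaps. Of all genes 0% were called by edgeR, and 331 had an unadjusted p under 0.05 (1.4% higher and 1.29% lower). Without regard to p, 4 members were higher and 1 lower without overlap, where 17.6% and 16.5% of all genes were. The cycling markers of these venous cells summed to 8.37 and 82.1 CPM in normal air and to 103 and 179 CPM in hyperoxia, and their part was not tested. In cycling cells 1 member was higher and 3 lower without overlap, where 16.6% and 16.4% of all genes were, and no member had an unadjusted p under 0.05, while 339 genes had and the edgeR test called 0%. DESeq2 and limma called no member under hyperoxia in any of the 4 types.

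**Figure D5:**
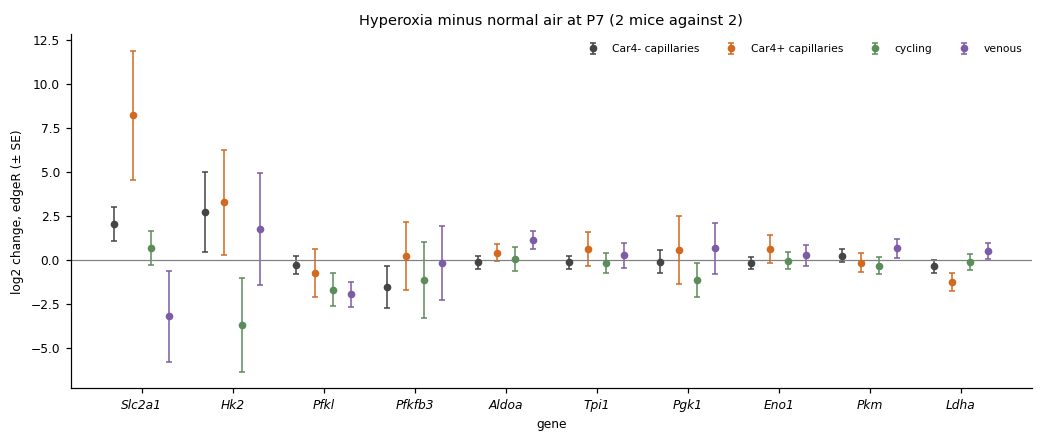
Log2 change under hyperoxia at P7 with its SE (edgeR) for each member in Car4-, Car4+, cycling and venous cells. Pfkl in venous cells (-1.94) lies below 0 and Slc2a1 in Car4+ cells (8.22) above it on 2 and 589 reads. None passed the adjusted test.

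Across subtypes of the same mice after birth no member passed the edgeR test. Car4+ against Car4- capillaries, in 6 mice, called 3.29% of 14873 genes and no member. Tpi1 was lower in Car4+ cells, at 51.5 ± 23.5 CPM against 99.1 ± 26.5 CPM (SD, n = 6), in all 6 mice, but did not pass the test (log2 difference -0.74, edgeR adjusted p = 0.379). This was the 1 member lower in every pair, where 12.9% of all genes were. Venous against Car4- cells called 1.06% of genes and no member, and no member had an unadjusted p under 0.05.

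Lymphatic EC carry lymph, and their defining factor Prox1 had 735 and 525 CPM in the 2 mice of P1 where they could be paired with Car4- cells, which had 8.02 and 0.08 CPM. Lyve1, another known marker, was read at 2915 and 2876 CPM in lymphatic and at 2056 and 2546 CPM in Car4- cells. In these mice 8 members had higher mean levels in lymphatic EC. Aldoa had 699 and 1240 CPM in lymphatic cells and 295 and 468 CPM in Car4- cells (log2 difference 1.02, SE 0.30, edgeR adjusted p = 0.0763). Eno1 had 152 and 219 CPM against 98.4 and 74.9 CPM (log2 difference 1.08, SE 0.46, edgeR adjusted p = 0.291). In both mice 4 members were higher, where 30.7% of all genes were, and 3.13% of genes were called. Aldoa was called by DESeq2 (adjusted p = 0.00155), limma (0.00515), RLE normalization (0.0209), CD31-gate cells alone (0.0294) and thinned cells (0.0482), and DESeq2 also called Eno1 (0.00897). Of all genes, these 5 called 9.92%, 7.87%, 3.01%, 3.07% and 5.11% in the same order. Cycling markers summed to 759 and 1025 CPM in lymphatic EC and to 32.0 and 48.9 CPM in Car4- cells of these mice, and their part in the result was not tested.

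Arterial EC of the first arterial label (3 mice) had Aldoa at 579 ± 168 CPM against 381 ± 86.4 CPM in Car4- cells (SD, n = 3; log2 difference 0.63, edgeR adjusted p = 0.308). Pkm was at 375 ± 197 CPM against 222 ± 82.4 CPM (log2 difference 0.74, edgeR adjusted p = 0.307). DESeq2 called both (adjusted p = 0.0313 and 0.0283) with 13.6% of all genes. The median of all genes in this pair was -0.59, and 0.289% were called. In every pair 1 member was higher and 2 lower, where 5.81% and 28.4% of all genes were.

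On the pathway lists, 4 genes passed the edgeR test between subtypes. The lists hold 22, 12, 7, 13 and 16 genes of the count table. Of all genes, 3.29% were called between Car4+ and Car4- capillaries and 3.13% between lymphatic EC and Car4- cells. Vegfa, the main growth signal for vessels, was lower in Car4+ than in Car4- capillaries, at 1.59 ± 2.42 against 34.5 ± 19.9 CPM (n = 6; log2 difference -5.18, adjusted p = 0.00507), and the regulator Myc was lower as well (0.12 ± 0.30 against 14.3 ± 11.4 CPM, adjusted p = 0.0114), a gene under the 20 CPM of the naming rule. In lymphatic EC Ndrg1, a hypoxia-inducible gene, was higher (277 ± 39.6 against 18.9 ± 3.46 CPM, log2 difference 3.86, edgeR adjusted p = 0.0475). Epas1 was lower in lymphatic EC, at 17.04 ± 13.5 against 1544 ± 384 CPM (log2 difference -6.81, edgeR adjusted p = 4.75e-08).

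Over all 48 sums the likeness between members varied widely. The Pearson correlation of a member with the mean of the other 9, on z-scored log2(CPM + 1), was highest for Eno1 (0.79), followed by Tpi1 (0.72), Pkm (0.65), Ldha (0.64) and Pfkl (0.52). Aldoa followed at 0.39, Hk2 at 0.29, Slc2a1 at 0.26, Pgk1 at 0.19 and Pfkfb3 at 0.01. Of 4162 other genes with a mean of at least 50 CPM, the 10 most like the mean of all members included Atp5b (0.75), Atp5a1 (0.73), Nectin2 (0.73), Hexa (0.68), Idh2 (0.67), Eif4b (0.66), Preb (0.65), Actr10 (0.64) and Eef1a1 (0.64). Atp5b and Atp5a1 encode subunits of mitochondrial ATP synthase, and Idh2 a mitochondrial isocitrate dehydrogenase. These sums share mice, runs and depth, so the values are descriptions.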

How the data were processed

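RNA of single cells from distal lung was made into plate-based Tn5 libraries, per the labels' protocols, and the authors deposited raw read counts per gene symbol and cell. STAR 2.5.2b and HTSeq 0.10 are named in the submitters' processing notes, with GRCh38 (a human build) as the only build, so the build behind these mouse counts is uncertain. A deposited sample is a single cell. The replicate was therefore the mouse name, with 2 per group. In comparisons between groups, p-values measure the spread between these names, pooled over the groups of a fit. Where the mouse is a term, they measure how far the difference between labels varies over mice. The edgeR test also draws the spread of a gene towards that of other genes. PCR copies of a molecule count as separate reads, and the reads of a gene can lie in few cells. Counting intervals and floors on reads treat each read as a separate draw. They leave out the spread over molecules, cells and mice, and so can be too narrow.

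Counts were summed per subtype label and mouse (at least 8 cells) and tested with edgeR 4.0.16 (TMM, filterByExpr, quasi-likelihood F test) under R 4.3.3. P-values were adjusted by Benjamini and Hochberg over all genes of a comparison, with calls at an adjusted p under 0.05. The code was tested on simulated data. Alternatives were DESeq2 1.42.0, RLE normalization, no filter on low counts, CD31-gate cells alone, cells thinned to 50000 reads (dropping 11 shallower ones), limma 3.58.1 on log2 of the mean CPM plus 1, the sex of the mouse as a replicate block (or no block), the Early Car4- label alone and each mouse left out. Adding the reads of those near-identical copies that have counts of their own was chosen after seeing the data. Promoters came from RefSeq and positions from GENCODE M21, which holds 18017 of the 18072 symbols; copies were found with blastn 2.17.0.

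The members, lists and tests were chosen with earlier results of these data known. All 10 members are named. Of the other lists, called genes are named, at most 3 per direction and list, if the higher group had a mean of 20 CPM or more. Of the genes most like the members, 1 is not reported here.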

Additional observations from a re-analysis of the deposited data

Results flagged for a closer look

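Of 50 pairs of the same contrast in different cell types or ages, 7 (14%) had the mice of both contrasts wholly apart in opposite directions, against 11.5% of 61534 such pairs over all genes tested. For 6 of these the difference between the types was not tested.

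From E18.5 to P1 Pfkfb3 had a log2 change of 5.54 in venous EC (1 against 260 reads) and -4.12 in cycling EC (349 against 2 reads). Under hyperoxia Pgk1 had 0.67 in venous and -1.11 in cycling EC, and Ldha 0.54 in venous EC and -1.26 in Car4+ capillaries. From P1 to P7 Slc2a1 had 1.08 in cycling EC and -8.28 in Car4+ capillaries, the latter on 375 and 2 reads. From P7 to P21 Hk2 had 8.14 in Car4+ (0 against 116 reads) and -0.97 in Car4- capillaries, and Eno1 had 0.63 in Car4+ and -0.66 in Car4- capillaries. The Hk2 difference between cycling and noncycling cells was 1.56 at P7 and -2.94 at E18.5. This pair was tested, and its difference of 4.50 (SE 3.17) had an edgeR adjusted p of 1.0.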

How the results depend on the processing

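No member passed the edgeR test in any of the 21 comparisons, and some did under an alternative. DESeq2 called 2 members in the birth step of noncycling cells, 1 in that of cycling cells, 1 each for cycling P7 against P1 and against E18.5, and 2 between cycling and noncycling cells at P7. It also called 1 each for P21 against P7 in Car4- and in Car4+ cells, 1 in venous cells at birth, 3 in arterial EC and 2 in lymphatic EC. In the comparisons where it called a member, DESeq2 called 1.51% to 13.6% of all genes, and the other alternatives 0.568% to 8.38%. The DESeq2 call of Hk2 in arterial EC (log2 difference -18.29) rests on 0 reads. With no filter on low counts 1 member was called for cycling P7 against E18.5 and 1 between cycling and noncycling cells at P7. Thinned cells gave 1 at that P7 pair and 1 in lymphatic EC, where RLE normalization, CD31-gate cells alone and limma gave 1 each. With each mouse left out, the count ranged from 0 to 2 in the birth step of cycling cells. It ranged from 0 to 1 for cycling P7 against P1, cycling P7 against E18.5, cycling against noncycling cells at P7 and venous cells at birth. The cause was not tested. With the sex of the mouse as a replicate block, or with the block removed where the design has it, 0 members were called in each comparison; the numbers pair mice by sex alone. Of 3387 values of single members, 178 changed sign without a call and 31 were called in the alternative. No member was called in the main fits, so there was no called value that could change sign. The n of 2, few reads per cell for Hk2, Pfkfb3 and Slc2a1, and near-identical copies limit these values.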

Other observations

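In the female E18.5 mouse 13 cells carried the Car4- label and were used in no comparison. Their members summed to 607 CPM, against 2686 CPM in the embryonic EC of that mouse. After thinning, 38.5% of these cells had no read of any member, and the median number of members read was 1, against 5 in the embryonic EC. Of 4 markers of Car4- capillaries, Gpihbp1 had 5971 CPM in these cells, against 1400 and 2224 CPM in the embryonic EC of the female and male mice, and Sema3c had 238 CPM against 14.3 and 3.71 CPM. Plvap (221 CPM against 629 and 1047 CPM) and Aplnr (336 against 357 and 478 CPM) were lower. The handling stress sum of the 13 cells was 4728 CPM.

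Gapdh, a glycolysis gene that most cells express strongly, had 13.9 ± 1.78 CPM (SD, n = 2) in embryonic EC at E18.5 and 5.92 ± 0.21 CPM in Car4- capillaries at P1. Near-identical copies were searched for the members alone, so the Gapdh values may be affected by copies as well.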
